A study of Macrobrachium nipponense with 2 samples.

Results

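A set of 104 abundant transcripts with like levels in hepatopancreas and muscle was examined in the oriental river prawn, Macrobrachium nipponense. The transcripts were chosen by their measured levels. Each is the only sequence of its assembly component, is shorter than 10000 bases, reaches at least 50 CPM (estimated counts per 1000000 counts of the library) in both tissues, and differs by at most 2-fold between them. They are 104 of 98560 listed transcripts. The likeness of the levels is therefore the rule itself and not a finding.

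One RNA library was made per tissue, from total RNA of prawns that the sample labels call juvenile and describe as bought at a market and kept in aerated freshwater for 72 h. The labels give no other treatment, and how many animals gave each library is not stated in the sources used here. The estimated counts summed to 99204205 for the hepatopancreas and 80492031 for muscle. No test could be made with a single library on each side, the intervals given cover counting error only, and a difference between tissues cannot be told apart from one between animals or preparations. In whole tissue, fewer cells of a type and less RNA per cell cannot be told apart either.

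The hepatopancreas is the digestive gland of crustaceans, which secretes digestive enzymes and stores lipid, whereas muscle is built around its contractile proteins. Both tissues also need transcripts that every cell uses, such as those for protein synthesis, energy supply and the cytoskeleton. Transcripts of this kind are called housekeeping transcripts, and the reference gene of a qRT-PCR experiment (β-actin in the study of these prawns) is usually taken from among them. The deposited table names transcripts only by assembly ID and pairs no ID with a gene. It therefore cannot be said here which of the 104 are housekeeping transcripts, and the tissue labels could not be compared with marker genes.

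The rule kept a minority of what either tissue expressed at this level. Of single-sequence transcripts under 10000 bases, 936 from the hepatopancreas library and 409 from muscle reached 50 CPM, and 233 reached it in both. Among these 233, 104 lay within 2-fold (44.6%), 109 were over 2-fold higher in the hepatopancreas and 20 were over 2-fold higher in muscle. The 104 were thus 11.1% of such single-sequence transcripts at 50 CPM in the hepatopancreas and 25.4% of those in muscle. No single-sequence transcript of 10000 bases or more reached 50 CPM in both libraries, so that the upper length limit removed none.

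**Figure D1:**
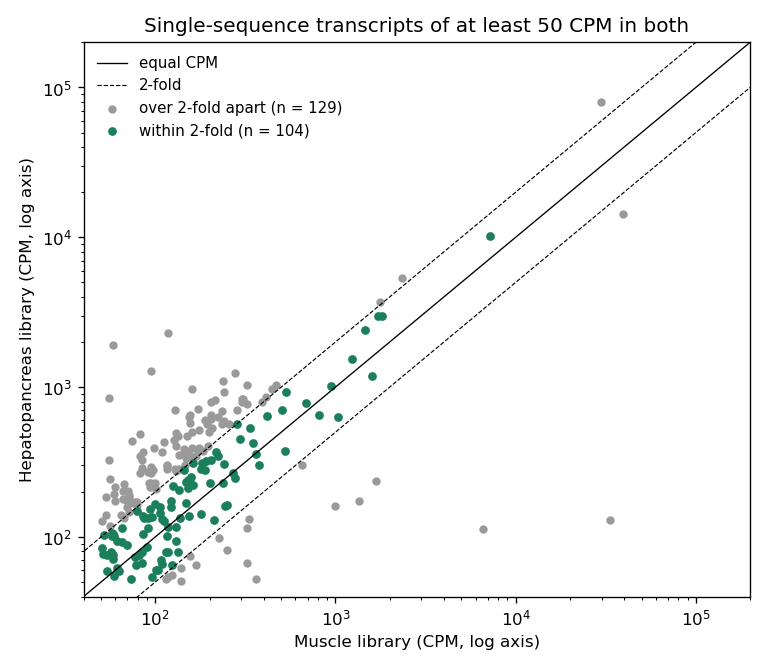
CPM in the hepatopancreas library (vertical, log axis) against CPM in the muscle library (horizontal, log axis) for the 233 single-sequence transcripts that reach 50 CPM in both, 1 point per transcript. The 104 green points lie between the dashed 2-fold lines by construction, and of the 129 grey points 109 lie above that band and 20 below it.

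The most abundant of the 104 was comp45584_c0_seq1, a transcript of 3358 bases. It had 10264 CPM in the hepatopancreas (95% Poisson interval 10244 to 10284) and 7164 CPM in muscle (7145 to 7182), which is 1.43-fold higher in the hepatopancreas. It held 1.03% of the hepatopancreas counts and 0.716% of the muscle counts, and ranked 15 and 24 among all transcripts of the libraries. The second, comp20908_c0_seq1 of 810 bases, had 2995 CPM (2985 to 3006) in the hepatopancreas and 1808 CPM (1799 to 1817) in muscle, 1.66-fold higher in the hepatopancreas. For both, the CPM was higher in the hepatopancreas by far more than counting error, but for comp45584_c0_seq1 the direction turned with the scaling between libraries (log2 ratio 0.52 on CPM and -0.036 on FPKM divided by its library totals).

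Of the transcripts that were higher in muscle, comp57248_c0_seq1 of 2996 bases was the most abundant. It had 1180 CPM (1173 to 1187) in the hepatopancreas and 1596 CPM (1587 to 1605) in muscle, 1.35-fold higher in muscle. It was followed by comp59221_c0_seq1 of 737 bases, with 632 CPM (627 to 637) in the hepatopancreas and 1032 CPM (1025 to 1039) in muscle, 1.63-fold higher in muscle. These 2 ranked 91 and 191 in the hepatopancreas library and 60 and 75 in the muscle library. A rank also depends on the other transcripts of its library, so nothing is read from this difference.

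Among the 10 most abundant, 2 transcripts shared a length of 2862 bases. One had 1014 CPM in the hepatopancreas against 944 CPM in muscle, and the other had 655 and 815 CPM. The first was 1.07-fold higher in the hepatopancreas and the second 1.24-fold higher in muscle. The files hold no sequences, so whether these are related was not examined.

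The counts of the set lay mostly in its leading transcripts. The 104 together held 4.19% of the hepatopancreas counts and 3.25% of the muscle counts, and the 10 most abundant supplied 58.4% and 56.8% of these. Among the 100 most abundant transcripts there were 6 of the 104 in the hepatopancreas library and 10 in muscle, with 6 in both lists. All 104 were among the 1000 most abundant in muscle, against 76 in the hepatopancreas. The median rank was 424.5 in muscle and 686 in the hepatopancreas, so that at like CPM the 104 stood nearer the top of the muscle library. Of all listed transcripts, 854 reached 50 CPM in muscle and 1551 in the hepatopancreas. The minimum of 50 CPM therefore fixed in advance that all 104 fell among the 1000 most abundant in muscle. It limited the ranks less tightly in the hepatopancreas, so nothing about the 104 is read from this difference in rank.

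The levels spanned a wide range. In the hepatopancreas they ran from 52.4 to 10264 CPM with a median of 140 and quartiles of 83.6 and 303 CPM. In muscle they ran from 50.6 to 7164 CPM with a median of 123 and quartiles of 83.5 and 226 CPM. The lowest counts behind these values were 5198 estimated reads in the hepatopancreas and 4076 in muscle. Counting error was accordingly small, and the largest half-width of the interval of a log2 ratio was 0.06.

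**Figure D2:**
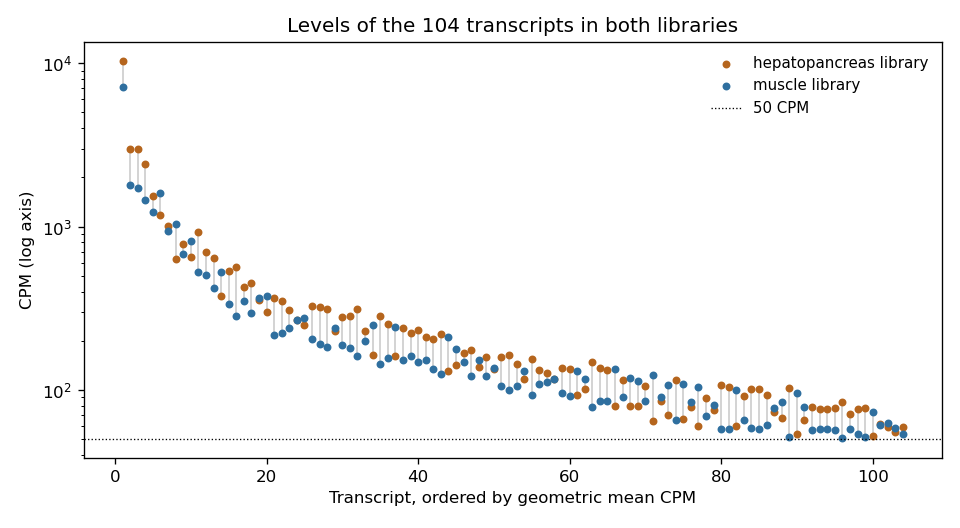
CPM (log axis) of each of the 104 transcripts in the hepatopancreas library (brown) and the muscle library (blue), ordered by the geometric mean of both, with a grey line joining the pair. Only 6 transcripts exceed 1000 CPM in both libraries, and brown lies above blue in 68 of 104 pairs.

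Like levels were rarely equal levels. A total of 13 transcripts lay within 1.1-fold, 22 within 1.2-fold and 58 within 1.5-fold. For 3 transcripts the exact binomial interval of the ratio held equality. One of them, of 1908 bases, had a hepatopancreas level of 117.4 CPM and a muscle level of 117.2 CPM. Another, of 1715 bases, had 268.9 and 269.5 CPM, and the third, of 6470 bases, had 62.2 and 60.9 CPM. On CPM the other 101 differed between these 2 libraries by more than counting error, although by at most 2-fold. These counts hold for CPM alone. Other scalings between libraries, given below, shift the log2 ratios by up to 0.55, against a largest half-width of 0.06. Which transcripts are nearly equal therefore depends on the scaling.

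On CPM the set leaned towards the hepatopancreas, and this turned under other scalings between libraries. Of the 104, 68 (65.4%) leaned to the hepatopancreas library and 36 to muscle, and the log2 ratio (hepatopancreas over muscle) had a median of 0.36 (quartiles -0.12 and 0.66). Among the 233 abundant transcripts from which the set was drawn, 76.0% were higher in the hepatopancreas and the median log2 ratio was 0.82. With the median ratio set to 1, taken over transcripts of at least 1 CPM in each library, the same 104 were split 44 to 60. On FPKM over its library totals they were split 37 to 67, and under both scalings more of them were higher in muscle. TMM factors (trimmed mean of M values) gave 70 to 34. The rule used this contrast, so nothing about the 104 is read from the share. By level on CPM, 20 of 37 transcripts with a geometric mean of at most 100 CPM were higher in the hepatopancreas. The numbers were 23 of 32 from there to 200 CPM, 20 of 29 up to 1000 CPM and 5 of 6 above it. Nothing is read from these parts either, and the 233 were not split in this way.

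On the hepatopancreas side the limit of 2-fold lay inside the bulk of the 233. Their log2 ratios had a median of 0.82 and quartiles of 0.10 and 1.41. Just inside were a transcript of 738 bases with 566 CPM in the hepatopancreas against 284 CPM in muscle (1.995-fold) and one of 2043 bases with 103.3 and 51.9 CPM (1.991-fold). Just outside were one of 1946 bases with 133.7 and 66.7 CPM (2.004-fold) and one of 569 bases with 790.2 and 389.1 CPM (2.03-fold). On the muscle side the nearest were 1.91-fold inside and 2.08-fold outside. Of the 233, 5 lay between 1.9-fold and 2-fold and 13 between 2-fold and 2.1-fold, and for 3 of the 104 the counting interval reached past 2-fold. At the limit of 50 CPM, the nearest inside had 84.9 CPM in the hepatopancreas against 50.6 CPM in muscle, and the nearest outside had 85.9 and 49.9 CPM.

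Length, which the rule used directly only as an upper limit, differed between the like transcripts and those higher in the hepatopancreas. The minimum of 50 CPM is on counts not divided by length, so a short transcript needed a higher level per base to reach it. The 104 had a median of 1836 bases (range 471 to 8103, quartiles 1127 and 2718). The 109 over 2-fold higher in the hepatopancreas had a median of 712 bases (quartiles 540 and 1691), and the 20 over 2-fold higher in muscle had a median of 2291 bases (quartiles 1928 and 3117). Transcripts below 750 bases made up 9 of the 104 (8.65%), 60 of the 109 (55.0%) and 0 of the 20. Transcripts that reached 50 CPM in 1 library alone did not show this contrast, with a median of 1652 bases for the 703 of the hepatopancreas and also 1652 bases for the 176 of muscle.

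The share of like transcripts among the 233 was small up to 750 bases and larger beyond. Up to 500 bases 1 of 20 lay within 2-fold (5%), and from there to 750 bases 8 of 49 (16.3%). From 750 to 1000 bases the share was 12 of 19 (63.2%), and it stayed between 53.1% and 61.8% in the 4 longer classes. The median log2 ratio was 1.93 and 1.37 in the 2 shortest classes, 0.76 from 750 to 1000 bases and between 0.36 and 0.63 beyond. None of the 69 transcripts of up to 750 bases was over 2-fold higher in muscle, and 60 were over 2-fold higher in the hepatopancreas. Transcripts are not replicates of a tissue, so no p-value is given. The limit of 750 bases was chosen after the values had been seen.

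**Figure D3:**
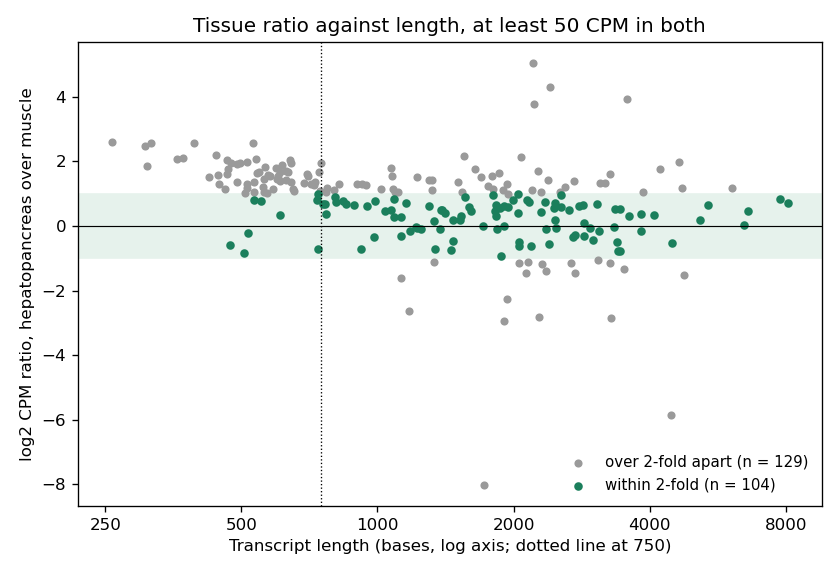
Log2 CPM ratio of hepatopancreas to muscle against transcript length (bases, log axis) for the same 233 transcripts, with the 2-fold band shaded and a dotted line at 750 bases. Left of the line 60 of 69 points lie above the band and 9 inside it, whereas right of it 95 of 164 lie inside.

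The 9 short transcripts within 2-fold were split between the tissues. Of these, 5 had their higher value in the hepatopancreas library, the other 4 in muscle. The shortest of all, of 471 bases, had 162 CPM in the hepatopancreas against 244 CPM in muscle. One of 507 bases had 54.1 and 96.4 CPM, and one of 516 bases had 100.8 and 116.6 CPM. These 3 and one of the named transcripts, comp59221_c0_seq1, were the only 4 of the 69 short abundant transcripts with a higher value in muscle.

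Between lower transcripts of the same length classes the shares lay closer together. Of 584 single-sequence transcripts with at least 10 CPM in both libraries but not 50 CPM in both, 23 of 59 up to 750 bases (39.0%) and 225 of 525 longer ones (42.9%) were within 2-fold. The shortest of these, up to 500 bases, had 4 of 19 within 2-fold (21.1%). Of the 59, 33 were over 2-fold higher in the hepatopancreas and 3 in muscle, with a median log2 ratio of 1.17. Of the 525, 234 and 66 were so, with a median of 0.89. In the 233 abundant transcripts the short ones also had higher levels, with a median geometric mean of 238 CPM against 147 CPM for the longer ones. CPM is not divided by length, so per base the short and longer ones lay further apart than this. The part of level in the contrast was not tested. In components of several sequences, with counts summed, too few were this short for a comparison (2 of 141), and 93 of the 141 (66.0%) were within 2-fold.

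Per length, the order of the 104 changed. FPKM divides the count by transcript length and depth, so levels of different transcripts can be set side by side on it, with a limit. The deposited values were not divided by the full listed length, since FPKM times length in kilobases over CPM was 1.11 for the shortest of the 104 and 0.941 for the longest (hepatopancreas), which raises short transcripts slightly. The median was 74.8 FPKM in the hepatopancreas (range 9.06 to 4218) and 64.9 FPKM in muscle (range 8.05 to 2479). The highest was a transcript of 735 bases, with 4218 FPKM in the hepatopancreas against 2479 FPKM in muscle, ahead of comp20908_c0_seq1 with 3793 and 2340 FPKM. The most abundant by counts, comp45584_c0_seq1, followed with 2913 and 2078 FPKM. At the other end, the transcript of 6470 bases with nearly equal levels had 9.06 and 9.07 FPKM. Of the 10 most abundant by CPM, 6 were among the 10 highest by FPKM in the hepatopancreas and 7 in muscle. Median FPKM was 380 and 261 in the 21 transcripts of up to 1000 bases and 22.9 and 21.8 in the 8 longer than 4000 bases (hepatopancreas and muscle), while the median geometric mean CPM of these classes was 238 and 115. As deposited, FPKM gave nearly the same tissue ratio as CPM for each of the 104, lower by 0.03 on the log2 scale throughout.

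How many transcripts count as like depended on the scaling between libraries. CPM sets the library totals equal, and a few very abundant transcripts of either tissue can then shift all others. The median log2 ratio was 0.47 over the 9658 transcripts that reached 1 CPM in each library. With this median set to 0, 148 of the 233 (63.5%) were within 2-fold, 53 were over 2-fold towards the hepatopancreas and 32 towards muscle. With FPKM divided by its library total the numbers were 150, 47 and 36, and with TMM factors 101, 112 and 20. Of the 104, 84 stayed within the rule under all 4 scalings. As to direction, 37 of the 68 transcripts higher in the hepatopancreas and 34 of the 36 higher in muscle kept their direction under all 4. This contrast is fixed in advance by the scalings. The median ratio and FPKM shift the log2 ratios towards muscle by 0.47 and 0.55, and TMM factors shift them far less, the other way. Nothing about the 2 directions is therefore read from it. Among the named transcripts comp45584_c0_seq1 came close to equality (log2 ratio 0.52 on CPM, 0.04 with the median set to 0 and -0.036 on FPKM over its totals), and comp59221_c0_seq1 left the 2-fold band (-0.71 on CPM, -1.18 and -1.26).

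**Figure D4:**
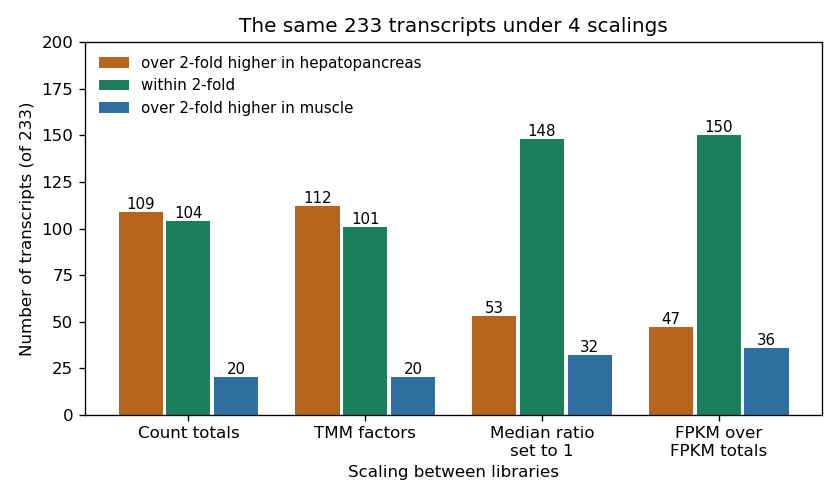
Number of the 233 abundant transcripts that were over 2-fold higher in the hepatopancreas (brown), within 2-fold (green) or over 2-fold higher in muscle (blue) under 4 scalings between libraries. The green bar is 104 on count totals, 148 and 150 on the median ratio and on FPKM over its totals, and is 101 with TMM factors.

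Under these 3 scalings the share within 2-fold was again the smaller one in the short transcripts. With the median ratio set to 0 on the log2 scale, 30 of 69 transcripts of up to 750 bases (43.5%) and 118 of 164 longer ones (72.0%) were within 2-fold. On FPKM over its totals the shares were 47.8% and 71.3%, and with TMM factors 11.6% and 56.7%. Each scaling shifts the log2 ratios of all transcripts by nearly the same amount, so the difference between the medians of short and longer transcripts is fixed in advance and is no further support.

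A single very abundant transcript lay outside or inside the 2-fold limit depending on the scaling. It was the most abundant of the hepatopancreas library, 1303 bases long, with 80484 CPM there and 29793 CPM in muscle. Its CPM values were 2.70-fold apart, but its log2 ratio was 0.96 with the median set to 0 and 0.88 on FPKM over its totals, which is inside. With TMM factors it was 1.47, which is outside. It alone held 8.05% of the hepatopancreas counts and 2.98% of the muscle counts. Its component number was shared by one of the 104, a transcript of 807 bases with 148 CPM in the hepatopancreas against 78.8 CPM in muscle. In all, 9 of the 104 and 9 of the 129 other abundant transcripts shared a component number with another component. No number was shared within the set, so the 104 came from as many numbered components.

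The share within 2-fold did not run in one direction with level. Single-sequence transcripts whose lower library had 1 to 2 CPM were within 2-fold in 683 of 1352 cases (50.5%). The share was 44.6% from 2 to 5 CPM (478 of 1071), 39.4% from 5 to 10 CPM (195 of 495), 40% from 10 to 20 CPM (136 of 340) and 45.9% from 20 to 50 CPM (112 of 244). Within the 233 it was 46.5% from 50 to 100 CPM (46 of 99), 39.5% from 100 to 200 CPM (30 of 76) and 48.3% from 200 CPM (28 of 58). The 44.6% of all 233 lay within the range of the classes below 50 CPM, which ran from 39.4% to 50.5%.

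Some reads may have been divided between similar sequences even though each transcript was alone in its component. None of the 104 had a whole estimated count in both libraries (to within 1e-06), and 9 had one in 1 library. Among all single-sequence transcripts under 10000 bases the share with whole counts in both was 89.1%. Of the other 129 abundant transcripts, 0 had whole counts in both. A whole count in 1 library was rarer there, with 1 of the 109 over 2-fold higher in the hepatopancreas and 0 of the 20 over 2-fold higher in muscle. The median geometric mean was also higher there, 229 CPM in the 109 and 148 CPM in the 20 against 126 CPM in the 104. Whole counts went with low levels, since under the same rule they made up 5.11% with a minimum of 10 CPM and 0.926% with a minimum of 20 CPM. The levels of single transcripts are uncertain to the extent that reads were so divided.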

How the data were processed

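RNA from hepatopancreas and muscle was sequenced as 1 library per tissue (Illumina TruSeq RNA kit, 1 ug of total RNA). The authors deposited 1 table of assembled transcripts with length, estimated counts (not normalized) and FPKM values per library. The sources used here do not state the assembler, aligner or counter. The table also holds p-values and false discovery rates of the authors' own comparison, which were not used.

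Deposited estimated counts were divided by the column total to give CPM, without rounding, filter or pseudocount. Counts were rounded for TMM factors and intervals. Intervals are exact Poisson (levels) and exact binomial, Clopper-Pearson (ratios) at 95%. They cover counting error only. The members, groups and length classes were chosen with earlier results of these data known. Transcripts were named by ID where they were the 2 most abundant of the set in each direction (geometric mean CPM); others are given by length. None of the IDs matched the gene table of RefSeq (0 matches). The rule and intervals were run on simulated Poisson counts, which checks the code alone. Poisson counts are what the intervals assume, and no simulated ratio was set near the 2-fold limit. Reads divided between transcripts were not simulated. Alternatives covered minimum level, fold, scaling, pseudocount, length limit, divided reads and sums per component. For scaled CPM the shift was shared equally between libraries; for FPKM the CPM minimum was kept. Computations used R 4.3.3 with edgeR 4.0.16 for TMM, and Python 3.11.15 with pandas 2.3.3, numpy 2.4.6, scipy 1.17.1 and matplotlib 3.10.9.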

Additional observations from a re-analysis of the deposited data

How the results depend on the processing

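The 104 transcripts became 352, 216 and 58 with a minimum of 10, 20 and 100 CPM, 58 within 1.5-fold and 209 within 4-fold, 158 with the median ratio set to 1, 197 with counts summed per component and 0 when only whole counts in both libraries were allowed. There were 101 with TMM factors, 105 with 1 CPM added, 104 without the length limit and 150 on FPKM over its totals. Their share of the abundant transcripts, 44.6%, was 64.5% with the median ratio set to 1, 64.4% on FPKM over its totals and 52.7% per component, and stayed between 43.1% and 45.3% under the other minimum levels and TMM factors. When the set was chosen anew, its share of the counts was 15.1% (median ratio) and 15.2% (FPKM) in the hepatopancreas and 7.29% and 7.23% in muscle. A single transcript that entered the set under both, the most abundant of the hepatopancreas library, held 8.05% of the hepatopancreas counts and 2.98% of the muscle counts. With a minimum of 10 CPM, 5.11% of the transcripts had whole counts in both libraries, against 0 of 104. The median log2 ratio of the 104, 0.36, turned to -0.11 with the median ratio set to 1 and to -0.19 on FPKM over its totals, and that of comp45584_c0_seq1 to -0.036 on the latter. These turns follow from the shift that each scaling adds to all transcripts. The median length stayed between 1516 and 1823 bases under the settings run for it. The settings for the length contrast were added once the values were known. There are no replicates. No paired analysis was possible because there is only 1 library for each tissue.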
